A study of Mus musculus with 48 samples.

Results

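Leptomeningeal fibroblasts, the collagen-making cells of the pia and the arachnoid, made up 344 of the 14121 cells measured. Cells were chosen by their detected RNA: at least 3 of the 5 collagen-group genes *Col1a1*, *Col1a2*, *Col3a1*, *Dcn* and *Lum* and fewer than 4 of the 6 neuron genes *Stmn2*, *Tubb3*, *Snap25*, *Syt1*, *Elavl4* and *Rbfox3*. A gene was detected in a cell when it had a UMI (unique molecular identifier), which counts 1 captured RNA molecule. Of the chosen cells, 81 were among 7186 control cells and 263 among 6935 Eed-cKO cells.

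The study addressed what loss of *Eed*, a core subunit of Polycomb repressive complex 2 (PRC2), does in the developing mouse hypothalamus. Hypothalami of 15 embryos at E18.5 were divided into pieces, dissociated with papain and captured in 48 libraries with the ddSEQ droplet system, which reads RNA 3′ ends. The 6 control embryos were Eed fl/fl, and the 9 Eed-cKO embryos were Eed fl/fl and also carried Sox1-Cre/+, all on a mixed background. Control embryos 1 and 6 were female and 2, 3, 4 and 5 male. Eed-cKO embryos 1, 4, 5, 6 and 8 were female and 2, 3, 7 and 9 male. *Sox1-Cre* is active in the neural plate and the CNS derived from it; the study's authors did not regard non-neural cells as targets of this Cre and set them aside. An embryo gave 5363119 to 7487417 UMIs in the control group and 658175 to 6299181 in the Eed-cKO group.

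The leptomeninges are the inner coverings of the brain, with the pia on the brain surface and the arachnoid outside the fluid-filled subarachnoid space. Their fibroblasts deposit collagens, laminins and fibronectin, including the basement membrane under the pia, and secrete factors such as retinoic acid, BMPs and the chemokine Cxcl12 that act on the brain beneath. Arachnoid cells carry junction proteins and solute transporters of the barrier between blood and cerebrospinal fluid, and release prostaglandin D synthase (Ptgds) into that fluid.

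The chosen cells carried markers of leptomeningeal fibroblasts that the choice had not used. *Slc6a13*, a transporter of GABA and taurine, was detected in 74.1% of the chosen cells and in 1.09% of neurons. Neurons here were the 9598 cells with at least 4 of the 6 neuron genes that were not chosen. *Igf2*, a growth factor of the meninges, was detected in 96.8% of the chosen cells and in 4.80% of neurons. Both shares lay far above the level in neurons, whose median depth of 5468 UMIs per cell was above the 4154 of the chosen cells.

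The level of *Slc6a13* was 1411 per 1000000 UMIs in all chosen cells together. It was 923 in the 44 chosen cells with 3 collagen-group genes, and 58.0 in the 111 cells left out with 2 such genes. In the 99 cells with 3 or more collagen-group genes but 4 or more neuron genes, it was 264. The cells just inside the limit thus had a higher level of this marker than those just outside. The gene was detected in 43.2% of these 44 cells and in 3.60% of the 111. In the 99 cells it was detected in 52.5%, at a median depth of 8381 UMIs against 3075.5 in the 44. No test was made of this because the limit itself selects for it.

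Levels per gene below are counts per 1000000 (CPM): the UMIs of a gene relative to all UMIs of an embryo's chosen cells, scaled by the TMM factor. Of genes with at least 100 CPM in the chosen cells, the highest ratios to neurons were those of *Itih2* (314), which encodes a hyaluronan-binding protein, and the gap junction gene *Gjb6* (309.8). *Ptgds* followed with a ratio of 303 and the small leucine-rich proteoglycan gene *Fmod* with 291. The solute carrier gene *Slc13a4*, the imprinted RNA gene *H19* and the collagen cross-linking enzyme gene *Lox* were also among the 15 highest. These ratios describe the cells and were not tested, since the choice was made on the same expression values.

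Markers of other cell types were mostly low. Of 12 microglia and macrophage genes, 3 had no UMI and the most abundant, *C1qb*, had 4.04 CPM. *Pecam1* and *Cldn5*, which mark endothelium, had 1 and 5 UMIs in all tested embryos. Among pericyte genes, *Vtn* stood at 1852 CPM, but *Kcnj8* and *Abcc9*, which define pericytes more closely, had 8 and 7 UMIs, none of them in control. *Cdh5*, known from endothelium, was the most abundant of 10 endothelial genes, at 309 CPM and in 66.7% of control and 51.7% of Eed-cKO chosen cells.

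Neuron RNA was present at a low level. The 20 further neuron genes summed to 3865, 983 and 840.4 CPM in control embryos 1, 2 and 6, and to 821, 1051 and 3244 CPM (lowest, median and highest) in the Eed-cKO embryos. In neurons of the same embryos the mean sum was 26309 CPM in control and 23707 in Eed-cKO. Control 1 thus had the highest neuron signal of the 3 controls, and the groups overlapped; the most abundant of these genes was *Snhg11*.

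Of the 14121 cells, 203 (1.44%) had a barcode that also occurred in another library, and 7 of them were chosen cells. No barcode was shared by 2 chosen cells, and no pair of libraries shared more than 2. Libraries held 163 to 465 cells apart from 1 of control 5, which held 1207 cells and no chosen cell. The leading number of the library names gives 4 control and 6 Eed-cKO groups of embryos, none of them with both genotypes. The labels do not state what this number is; if it is the litter, litter and genotype cannot be told apart in any comparison below.

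Eed-cKO 6 stood apart from the other embryos. It was 1 library with 13 chosen cells and 48142 UMIs in them, and lay at −1.84 on the first axis of a multidimensional scaling of the embryos' chosen cells, against −0.36 to 0.48 for the others. Its log-CPM values correlated with those of the other Eed-cKO embryos at a median r of 0.717 across genes, compared with 0.804 over all Eed-cKO pairs. Without it, 222 genes passed the test of genotype in place of the 183 described below, and 182 of the 183 were among them.

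*Eed* itself was low in these cells. Control embryos 1, 2 and 6 had 48.8, 26.4 and 7.78 CPM, and the Eed-cKO embryos had 0, 10.0 and 75.0 CPM (lowest, median and highest). That rests on 9 UMIs in control and 24 in Eed-cKO, and the groups overlapped (log2 −0.38, SE 0.802, adjusted p = 0.917, edgeR quasi-likelihood test). In neurons of the same embryos *Eed* fell from a mean of 30.6 to 22.6 CPM (log2 −0.44, SE 0.131, adjusted p = 0.0305). It also passed in neurons with fewer than 3 collagen-group genes, a set chosen after the data were seen (log2 −0.42, adjusted p = 0.0380). In neurons without collagen-group RNA, also chosen after the data were seen, it missed the threshold at a similar size (log2 −0.40, adjusted p = 0.0533). The difference between these effects was 0.07 (SE 0.753), which the depth could not tell from 0. The libraries read transcript ends, and exons of *Eed* overlap those of E230029C05Rik on the other strand; the strand of counting is not stated.

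The genes of the catalytic subunits *Ezh1* and *Ezh2* and of the core subunit *Suz12* were as sparse. *Ezh2* was counted at 15 UMIs in the controls and 53 in Eed-cKO (log2 0.02, SE 0.536, adjusted p = 0.996), and *Suz12* had 17 and 51 (log2 −0.18, SE 0.459, adjusted p = 0.935). *Ezh1* had 7 and 30 UMIs (log2 0.34, SE 0.711, adjusted p = 0.913). None of the 10 PRC2 genes tested passed in edgeR, and none had an unadjusted p under 0.05. With SEs this wide, changes in these 4 genes could not be resolved at this depth.

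Leptomeningeal fibroblasts were a larger share of the cells in Eed-cKO than in control embryos. The control embryos 1 to 6 had 1.08%, 3.50%, 0.576%, 0.172%, 0% and 2.01% of their cells chosen, and the Eed-cKO embryos had 1.84% at the lowest, 3.28% at the median and 6.12% at the highest. In control 5 none of 1664 cells was chosen, with a 95% Wilson interval that reaches 0.230%. Only control 2 and control 6 reached the range of the Eed-cKO embryos. The mean share was 1.22% ± 1.33 (SD, n = 6) in control and 3.52% ± 1.198 (SD, n = 9) in Eed-cKO, a difference of 2.30 points (exact two-sided permutation test, p = 0.0038).

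**Figure D1:**
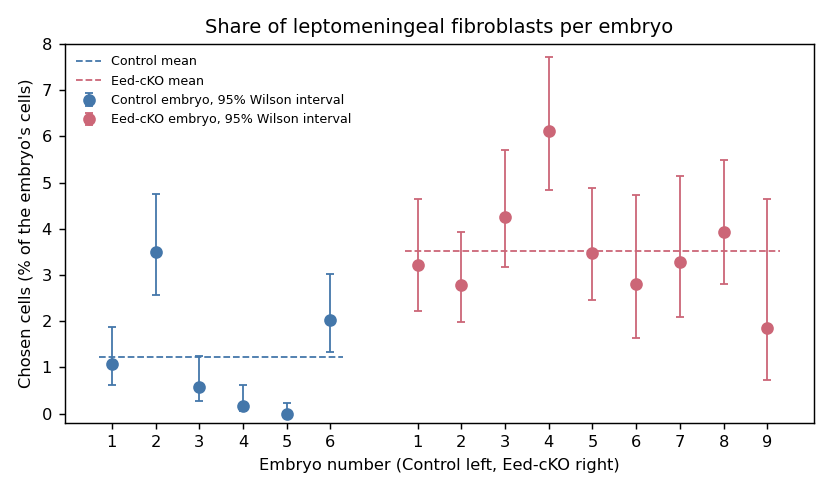
The share of leptomeningeal fibroblasts among all cells (%) is plotted for each control and Eed-cKO embryo with its 95% Wilson interval, and dashed lines mark the group means of 1.22% and 3.52%. Controls ran from 0% to 3.50% and Eed-cKO embryos from 1.84% to 6.12%.

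The difference also held with these name groups as samples (2.26 points, exact permutation p = 0.0238), and it lay between 1.98 and 2.76 points when each embryo was left out in turn. Measured among cells without 4 or more neuron genes, a denominator chosen after the data were seen, the mean share was 4.47% in control and 10.0% in Eed-cKO (exact permutation p = 0.0292). The share is one of dissociated cells, and how much meninges stayed on each dissected piece is not stated. Droplets with at least 3 collagen-group and at least 4 neuron genes, which the choice leaves out and which count as neurons here, numbered 6 in control and 93 in Eed-cKO, of which Eed-cKO 5 had 43, Eed-cKO 3 had 27 and Eed-cKO 6 had 11. Their share of all cells averaged 0.0916% in control and 1.29% in Eed-cKO (exact permutation p = 0.0468). With no limit on neuron genes, which adds them to the chosen cells, the mean share was 1.32% in control and 4.81% in Eed-cKO, a difference of 3.50 points (exact permutation p = 0.00340).

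Depth per chosen cell overlapped between the groups. The median was 5411, 4018 and 6307 UMIs in control embryos 1, 2 and 6, and 2788, 3710 and 6610 (lowest, median and highest) over the 8 Eed-cKO embryos with at least 10 chosen cells. The Eed-cKO mean minus the control mean was −1187 UMIs (exact two-sided permutation test, p = 0.176, of which 0.00606 is the smallest that 165 divisions allow). Without Eed-cKO 5, the deepest, the difference was −1551 UMIs with an exact permutation p of 0.025. Of the chosen cells, 7 in control and 47 in Eed-cKO had under 2000 UMIs.

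The test of genotype compared UMI sums of 3 control and 8 Eed-cKO embryos with at least 10 chosen cells each (332 cells) in edgeR, with Benjamini-Hochberg adjusted p values over all 9966 genes tested. Of these, 183 passed at 0.05 (1.84%), 73 with more RNA in Eed-cKO (0.732%) and 110 with less (1.1%). The size of the called changes ran from 0.75 to 6.85 in log2, with a median of 1.65. The median of the signed log2 over all genes tested was 0.02.

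For 44 of the genes called higher, the lowest Eed-cKO embryo exceeded the highest control (as for 169 of all tested, 1.7%). For 45 of those called lower, the groups were separate the other way (159 of all tested, 1.6%). The number of calls depended on the controls: without control 2 it was 49 genes, of which 46 were among the 183, and without control 6 it was 55, of which 47 were. Without Eed-cKO 4 it was 120, all among the 183. With the chosen cells of at least 2000 UMIs thinned to 2000, the fit held 279 cells in place of 332. The choice of cells was still that made before thinning. It then called 117 of 6821 genes tested, 90 of them among the 183. None of the 183 genes changed sign under any alternative in which it was fitted.

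**Figure D2:**
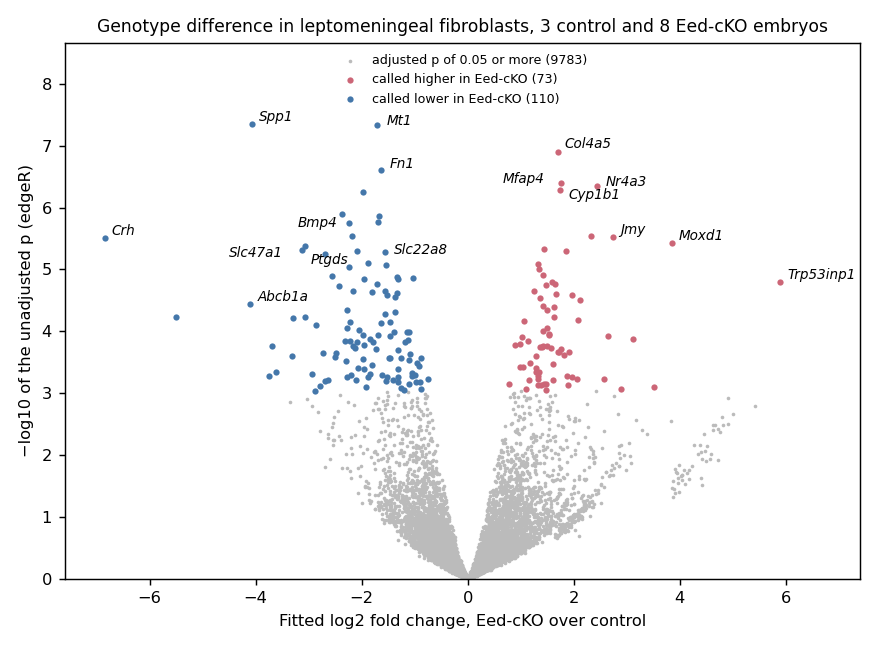
Each point is 1 of the 9966 genes tested, with its fitted log2 fold change of Eed-cKO over control on the horizontal axis and the −log10 of its unadjusted edgeR p on the vertical axis. The 73 genes called higher are red and the 110 called lower blue; *Spp1* (−4.07), *Mt1* (−1.71), *Fn1* (−1.63) and *Col4a5* (1.70) stand highest.

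*Ptgds*, the prostaglandin D synthase of the leptomeninges, had the largest fall in CPM of all genes called. Control embryos 1, 2 and 6 had 15410.2, 70618 and 39158 CPM, and the Eed-cKO embryos had 37.5, 3950.3 and 14527 CPM. All 8 Eed-cKO embryos lay below all 3 controls, although the highest, Eed-cKO 3, came close to control 1 (log2 −3.06, SE 0.561, adjusted p = 0.00225). In control 1, 1206 of its 1264 *Ptgds* UMIs came from 1 of its 12 cells, so the separation of that embryo rests on this cell. Control 3, with 6 chosen cells and not tested, had 24 *Ptgds* UMIs, and control 4, with 2, had 0. Without control 2 the adjusted p was 0.0589, and the call also ended in 1 alternative other than leaving out an embryo (0.0781). The gene lies on the minus strand at chr2:25466709-25470046 (GENCODE vM21, GRCm38).

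Few cells made most of this RNA. Cells with at least 100 *Ptgds* UMIs numbered 24 of 81 in control and held 98.7% of the group's *Ptgds* UMIs; in Eed-cKO they numbered 20 of 263 and held 89.9%. No *Ptgds* UMI was found in 28 control and 179 Eed-cKO cells. The *Ptgds* level also varied with the number of collagen-group genes. Pooled over all embryos and without the TMM factor, it was 40282 CPM in the 44 chosen cells with 3. It was 32101 CPM in the 97 with 4 and 5211 CPM in the 203 with all 5. Of the control cells 12, 34 and 35 had 3, 4 and 5 such genes, and of the Eed-cKO cells 32, 63 and 168. How much of the fall comes from this mix of cells was not tested. *Ptgds* was detected in 5.17% of neurons, at a mean of 83.7 CPM in control and 36.7 in Eed-cKO neurons, far below the level in the chosen cells. Its promoter is shown because this gene led the genes that fell, with capitals marking the E-box CAGCTG, found at 2 places. It covers 250 bases before to 50 after the start in RefSeq (GRCm38.p6, chr2:25469700-25469999, minus strand).
Ptgds: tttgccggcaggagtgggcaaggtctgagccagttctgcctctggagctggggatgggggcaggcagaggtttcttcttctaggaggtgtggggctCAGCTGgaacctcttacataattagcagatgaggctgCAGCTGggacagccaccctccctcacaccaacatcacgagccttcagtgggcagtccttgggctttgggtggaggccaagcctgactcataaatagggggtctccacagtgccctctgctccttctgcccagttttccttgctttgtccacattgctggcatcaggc
The E-box occurs on either strand in 16.3% of 32851 such promoters, and the GC box GGGCGG, the CCAAT box CCAAT and the TATA box TATAAA were not found in this window.

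Of 20 leptomeningeal markers outside the choice, *Ptgds* among them, 19 were tested. Of these, 6 fell (1.1% of all genes did) and 1 rose (0.732%), and their median log2 was −0.44 against 0.02 over all genes. The same shares over all genes, 1.1% lower and 0.732% higher, apply to each list count below. The other 12 did not pass, among them *Fmod* (log2 −0.75), *Ogn* (−0.65), *Foxd1* (−0.48) and *Zic1* (0.52). *Igf2* was at 18373, 15304 and 14824 CPM in control and at 11859, 15796 and 18496 CPM in Eed-cKO, and *Foxc1*, a forkhead factor that meningeal development requires, was at 244, 587 and 755 and at 299.99, 509 and 607 CPM. Their ranges overlapped between the groups. *Slc6a13* was at 1487, 1920.4 and 1175 CPM in control and at 431, 1411 and 1706 CPM in Eed-cKO (log2 −0.22, SE 0.251, adjusted p = 0.816), a difference smaller than the spread between embryos.

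Several transporters of the arachnoid barrier fell. Of these, *Slc22a8*, *Slc47a1* and *Slc13a4* were also counted among the leptomeningeal markers that fell. Of 16 barrier transporter genes tested, 6 fell and 1 rose, with a median log2 of −1.28 against 0.02 over all genes; without control 2, 3 fell and none rose, with a median of −0.54, and without control 6, 3 fell and none rose, with a median of −1.21. Their summed level was 4328, 7457 and 6591 CPM in the controls, and 3094, 3783 and 4217 CPM in Eed-cKO, so that every Eed-cKO embryo lay below every control. *Slc22a8*, an organic anion transporter, had 366, 429 and 233 CPM in control and 37.5, 91.8 and 194 CPM in Eed-cKO (log2 −1.56, SE 0.290, adjusted p = 0.00225). *Slc47a1*, a drug and toxin extruder, had 109.7, 172 and 319 CPM in control and 0, 0 and 93.7 CPM in Eed-cKO (log2 −3.13, SE 0.579, adjusted p = 0.00225). In both genes all 8 Eed-cKO embryos lay below all controls, and for *Slc47a1* 5 of them had no UMI.

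The sulfate transporter gene *Slc13a4* had 195, 429 and 179 CPM in control and 0, 93.2 and 169 CPM in Eed-cKO, again below all controls in 8 of 8 embryos (log2 −1.46, SE 0.358, adjusted p = 0.0224). The monocarboxylate transporter family genes *Slc16a9* and *Slc16a11* lay below all controls in 7 of 8. *Slc16a9* had 146, 290.4 and 731 CPM in control and 10.7, 28.2 and 394 CPM in Eed-cKO (log2 −2.69, SE 0.502, adjusted p = 0.00236), the highest being Eed-cKO 6. *Slc16a11* had 24.4, 125 and 85.6 CPM in control and 0, 4.69 and 32.3 CPM in Eed-cKO (log2 −2.86, SE 0.639, adjusted p = 0.0114). *Slc38a2*, a neutral amino acid transporter, had 999.7, 1901 and 2833 CPM in control and 389.8, 568.3 and 1331 CPM in Eed-cKO (log2 −1.36, SE 0.282, adjusted p = 0.00548), and 6 of 8 Eed-cKO embryos were below all controls. The glutamine transporter gene *Slc1a5* went the other way, with 12.2, 33.0 and 23.3 CPM in control and 18.7, 109 and 136 CPM in Eed-cKO (log2 2.08, SE 0.456, adjusted p = 0.0101; 7 of 8 above all controls). By contrast *Slc22a6*, an organic anion transporter next to *Slc22a8* on chromosome 19, had 354, 614 and 319 CPM in control and 225, 521 and 747 CPM in Eed-cKO, with overlapping groups.

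Several of these calls rested on 1 control embryo. Without control 2 the adjusted p was 0.0697 for *Slc22a8*, 0.463 for *Slc13a4*, 0.257 for *Slc16a11* and 0.0550 for *Slc1a5*. Without control 6 it was 0.0757 for *Slc47a1*, 0.154 for *Slc16a9*, 0.0731 for *Slc16a11*, 0.171 for *Slc38a2* and 0.0846 for *Slc1a5*. All of these kept their direction without either embryo.

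Several genes typical of the arachnoid fell and several typical of the pia rose. Of 8 arachnoid-type genes 5 fell (1.1% of all genes did) and none rose, with a median log2 of −1.29. Among these, *Slc47a1* and *Cldn11* were also counted with the leptomeningeal markers that fell. Of 8 pia-type genes 4 rose (0.732% of all genes did) and none fell, with a median of 0.97, against 0.02 over all genes. Without control 2, 4 arachnoid-type and 0 pia-type genes passed in edgeR, and without control 6, 0 and 1. Arachnoid-type genes summed to 2426, 4520.5 and 5704 CPM in control embryos 1, 2 and 6, and to 1643, 2105 and 2841 CPM in Eed-cKO. Pia-type genes summed to 4304, 2429 and 3027 CPM in control, and to 4176, 5963 and 10131 CPM in Eed-cKO. Controls 2 and 6 lay apart from all Eed-cKO embryos on both sums, while control 1 lay among them.

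**Figure D3:**
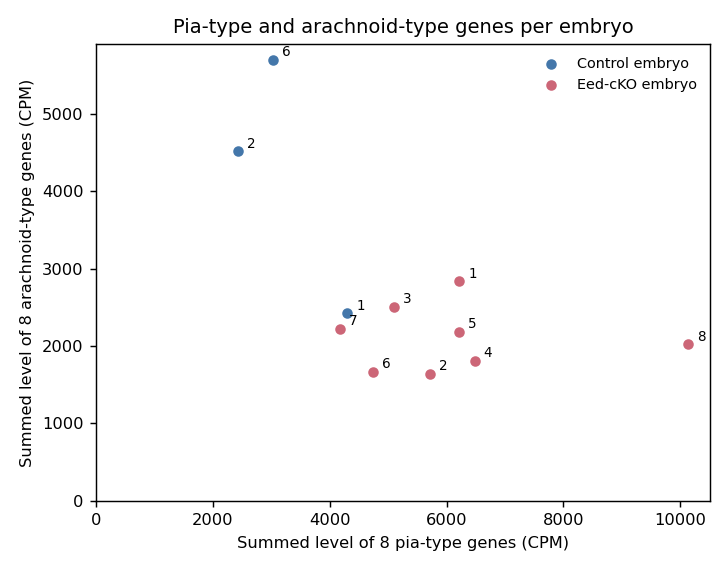
Each point is 1 embryo, labelled with its number, with the summed level of 8 pia-type genes (CPM) on the horizontal axis and that of 8 arachnoid-type genes (CPM) on the vertical axis. Controls 2 and 6 reach 4520.5 and 5704 CPM of arachnoid-type RNA, whereas control 1 (2426 CPM) lies within the 1643 to 2841 CPM of the Eed-cKO embryos.

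The arachnoid-type genes that fell encode junction proteins, a Wnt ligand, a retinoic acid carrier and the transporter Slc47a1 given above. *Cldn11*, a tight junction claudin, had 549, 838 and 1992 CPM in control and 177, 324 and 649 CPM in Eed-cKO (log2 −1.52, SE 0.313, adjusted p = 0.00536; below all controls in 6 of 8). *Cdh1*, E-cadherin of the arachnoid barrier, had 109.7, 112 and 366 CPM in control and 0, 11.6 and 131 CPM in Eed-cKO (log2 −2.56, SE 0.502, adjusted p = 0.00403; 7 of 8). *Wnt6* had 244, 251 and 280.1 CPM in control and 0, 87.9 and 145 CPM in Eed-cKO (log2 −1.56, SE 0.318, adjusted p = 0.00498; 8 of 8). *Crabp2*, a cellular retinoic acid binding protein, had 341, 950.3 and 584 CPM in control and 148, 303 and 489 CPM in Eed-cKO (log2 −1.05, SE 0.275, adjusted p = 0.0359; 4 of 8). *Wnt6* separated the groups fully with the narrowest controls, while *Cldn11* and *Cdh1* were highest in control 6.

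The pia-type genes that rose encode a laminin chain, a chemokine, a retinol dehydrogenase and a neurotrophin receptor. *Lama1* had 171, 72.6 and 156 CPM in control and 262, 315 and 656 CPM in Eed-cKO (log2 1.49, SE 0.319, adjusted p = 0.00802; above all controls in 8 of 8). *Cxcl12* had 1585, 1128 and 1113 CPM in control and 1977, 2523 and 4424 CPM in Eed-cKO (log2 1.07, SE 0.237, adjusted p = 0.0106; 8 of 8). *Rdh10*, which oxidises retinol on the way to retinoic acid, had 109.7, 46.2 and 70.0 CPM in control and 80.6, 229 and 297 CPM in Eed-cKO (log2 1.62, SE 0.354, adjusted p = 0.00948; 7 of 8), and *Ngfr* had 85.3, 39.6 and 54.5 and 16.1, 184 and 375 CPM (log2 1.81, SE 0.443, adjusted p = 0.0215; 7 of 8). Eed-cKO 8 was the highest in *Lama1* and *Cxcl12*. The proteoglycan gene *Bgn* narrowly missed the threshold, at 902, 541 and 840.4 CPM in control and 790.1, 1327 and 2184 CPM in Eed-cKO (log2 0.87, SE 0.244, adjusted p = 0.0566).

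These calls too depended on the controls, of which only 3 had enough cells. The adjusted p without control 2 was 0.156 for *Lama1*, 0.114 for *Cxcl12*, 0.157 for *Rdh10*, 0.211 for *Ngfr* and 0.489 for *Crabp2*. Without control 6 it was 0.379 for *Cldn11*, 0.294 for *Cdh1*, 0.0544 for *Wnt6*, 0.106 for *Crabp2*, 0.113 for *Cxcl12*, 0.0770 for *Rdh10* and 0.137 for *Ngfr*. *Crabp2* also missed the threshold without Eed-cKO 2, 4 or 8 (0.0698, 0.0775 and 0.0642).

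The same genes were counted within each cell, as a description. More arachnoid-type than pia-type UMIs were found in 48 of 81 control cells (59.3%) and in 56 of 263 Eed-cKO cells (21.3%). By embryo this share was 25%, 66.7% and 77.3% in controls 1, 2 and 6, and 2 of 6 and 0 of 2 cells in controls 3 and 4. It ran from 9.68% to 40.7% in Eed-cKO embryos 1 to 8 and was 2 of 4 cells in Eed-cKO 9. Only controls 2 and 6 thus lay above the Eed-cKO embryos. The counts differed by at most 2 UMIs in 11 control and 39 Eed-cKO cells, and their rank correlation over the 344 cells was −0.44; whether the cells form separate types was not tested. The list genes themselves define this division and are not compared in it.

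Among genes outside those lists, chosen here after their values were seen, some differed between genotypes in the same direction within each kind of cell and some did not. In cells with more arachnoid-type UMIs, *Ptgds* was at 60033 per 1000000 UMIs in control and at 20818 in Eed-cKO; in cells with more pia-type UMIs it was at 1307 and 477. *Fn1* was at 2854 and 2040 in the former and at 567 and 278 in the latter, and *Mt1* at 1903 and 1306, and at 993 and 281. *Cyp1b1* was at 99.8 in control and 260 in Eed-cKO in the former and at 530 and 1079 in the latter. These 4 genes kept the direction of the whole in both kinds of cell. *Col4a5*, which rose in the whole, did not: it was at 146 in control and 91.4 in Eed-cKO in the former and at 358 and 821 in the latter, and *Col4a6* at 14.3 and 5.71, and at 336 and 445. *Igf2* was at 15095.5 and 17863.5 in the former and at 20815 and 13755 in the latter. These pooled levels were not tested. How much of each genotype difference comes from the mix of cells was not tested.

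Of 8 genes typical of the dura, the outer covering, 2 fell (*Foxp1* and *Alpl*) and none rose, with a median log2 of −1.10 against 0.02 over all genes. None passed without control 2, control 6 or Eed-cKO 4, nor with embryos of at least 5 chosen cells, and the median was −0.73 without control 6. *Foxp1*, a forkhead factor, had 415, 554 and 949 CPM in control and 150.0, 298 and 501 CPM in Eed-cKO (log2 −1.09, SE 0.264, adjusted p = 0.0208), and 7 of 8 Eed-cKO embryos lay below all controls. It missed the threshold without control 2 (0.0595), control 6 (0.424) or Eed-cKO 4 (0.0503). *Mgp*, an inhibitor of calcification, had 536, 752 and 1782 CPM in control and 104, 287 and 825 CPM in Eed-cKO and did not pass (log2 −1.41, SE 0.414, adjusted p = 0.0698).

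**Figure D4:**
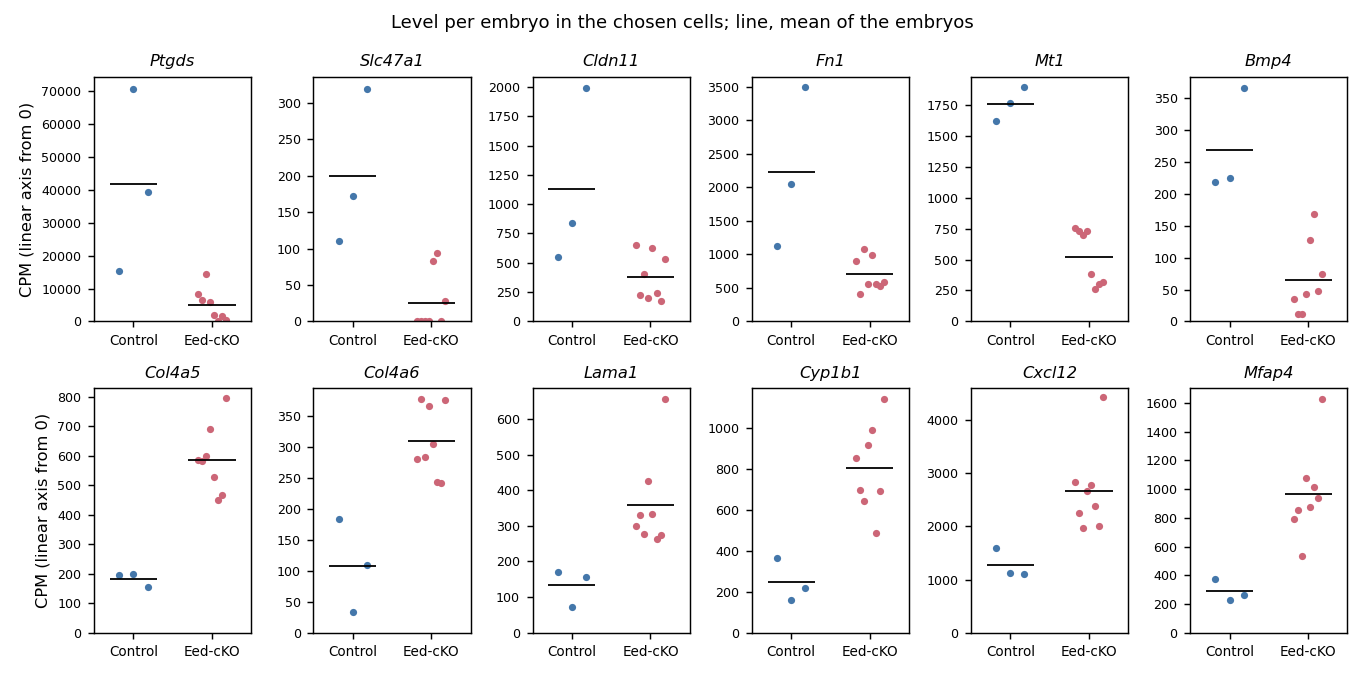
Each panel shows the level of 1 gene (CPM, linear axis from 0) in the chosen cells of 3 control and 8 Eed-cKO embryos, with a line at the mean. In the panels of *Ptgds*, *Slc47a1*, *Fn1*, *Mt1* and *Bmp4* all Eed-cKO embryos lie below all controls and in those of *Col4a5*, *Col4a6*, *Lama1*, *Cyp1b1*, *Cxcl12* and *Mfap4* above; in *Cldn11*, 2 overlap.

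Within the extracellular matrix, 2 collagen chains of the basement membrane rose while fibronectin fell. Of 24 listed collagen genes tested, 2 rose and none fell, and their median log2 was 0.45; *Col7a1*, given below, is not on that list and rose as well. *Col4a5*, a chain of type IV collagen, had 195, 198 and 156 CPM in control and 450.0, 584 and 797 CPM in Eed-cKO (log2 1.70, SE 0.256, adjusted p = 0.000421). *Col4a6*, the chain it assembles with, had 183, 33.0 and 109 CPM in control and 242, 293 and 376 CPM in Eed-cKO (log2 1.65, SE 0.331, adjusted p = 0.00443). In both genes all 8 Eed-cKO embryos lay above all controls. *Col4a5* kept its call whichever embryo was left out, and *Col4a6* had an adjusted p of 0.128 without control 2.

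The more abundant type IV chains moved less. *Col4a1* had 2036, 1023 and 1206 CPM in control and 1087, 2021 and 3608 CPM in Eed-cKO (log2 0.59, SE 0.265, adjusted p = 0.353), and *Col4a2* had 1353, 581 and 840.4 and 709, 1284 and 1978 CPM (log2 0.50, SE 0.262, adjusted p = 0.465). Neither passed, and 3 and 4 of 8 Eed-cKO embryos were above all controls. The exons of *Col4a1* and *Col4a2* overlap on opposite strands only where both genes start, at chr8:11312805-11312826. The libraries read transcript ends, which lie at the far side of each gene.

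*Col4a5* (chrX:141475385-141689234, plus strand) and *Col4a6* (chrX:141165403-141474076, minus strand) lie head to head on the X chromosome, with starts 1309 bases apart in GENCODE vM21. Their promoters are shown because the pair rose together. Capitals mark the GC box GGGCGG, which reads CCGCCC on the other strand, and the CCAAT box CCAAT; the RefSeq windows (GRCm38.p6) are chrX:141475169-141475468 (plus) and chrX:141474027-141474326 (minus).
Col4a5: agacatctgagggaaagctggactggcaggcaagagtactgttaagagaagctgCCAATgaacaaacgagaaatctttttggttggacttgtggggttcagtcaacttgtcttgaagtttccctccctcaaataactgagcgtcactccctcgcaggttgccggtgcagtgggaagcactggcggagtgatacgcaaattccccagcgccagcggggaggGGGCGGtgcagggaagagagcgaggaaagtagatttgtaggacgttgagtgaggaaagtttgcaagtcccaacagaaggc
Col4a6: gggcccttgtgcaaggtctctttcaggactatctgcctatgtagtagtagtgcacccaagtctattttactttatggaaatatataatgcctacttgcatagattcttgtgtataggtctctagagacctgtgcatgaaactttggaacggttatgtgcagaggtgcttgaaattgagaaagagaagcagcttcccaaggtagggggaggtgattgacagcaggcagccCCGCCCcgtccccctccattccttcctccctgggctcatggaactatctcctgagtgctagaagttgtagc
The *Col4a5* window held 1 GC box and 1 CCAAT box and the *Col4a6* window 1 GC box, and neither held TATAAA or CAGCTG. Over all 32851 promoters, 35.7% held a GC box, 37.4% a CCAAT box and 13.6% a TATAAA, on either strand.

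*Fn1*, which encodes fibronectin, had 1122, 2052 and 3486 CPM in control and 411, 576 and 1085 CPM in Eed-cKO (log2 −1.63, SE 0.255, adjusted p = 0.000609). All 8 Eed-cKO embryos lay below all controls, and the call held whichever embryo was left out. Of 13 basement membrane genes 1 rose and 2 fell (median log2 0.22), the risen gene being *Lama1*. *Lamb2*, a laminin chain, had 366, 403 and 599 CPM in control and 93.7, 202 and 331 CPM in Eed-cKO (log2 −0.97, SE 0.258, adjusted p = 0.0403; 8 of 8 below), but its call ended on leaving out any 1 of controls 2 and 6 and Eed-cKO 2, 4, 7 and 8 (0.110, 0.410, 0.0674, 0.0893, 0.0568 and 0.0679). *Sparc*, a collagen-binding glycoprotein and the most abundant of the list, stayed at similar levels, with 3901, 4237 and 4358 CPM in control and 3809, 4908 and 7282 CPM in Eed-cKO.

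Of 25 matrix glycoprotein genes 2 rose and 2 fell, with a median log2 of −0.03. The microfibril genes *Mfap4* and *Mfap2* rose in 8 of 8 Eed-cKO embryos. *Mfap4* had 378, 231 and 265 CPM in control and 533, 905 and 1631 CPM in Eed-cKO (log2 1.75, SE 0.283, adjusted p = 0.000693), and *Mfap2* had 744, 369.6 and 490.3 and 851, 1374 and 2839.8 CPM (log2 1.48, SE 0.297, adjusted p = 0.00443). *Spp1*, osteopontin, fell furthest, from 12.2, 191 and 140.1 CPM in control to 0, 2.02 and 17.6 CPM in Eed-cKO (log2 −4.07, SE 0.583, adjusted p = 0.000234), with 48 and 8 UMIs. Control 1, at 12.2 CPM, lay within the Eed-cKO range of this gene. *Thbs2*, an angiogenesis inhibitor, had 134, 158 and 280.1 and 32.3, 59.9 and 145 CPM (log2 −1.32, SE 0.337, adjusted p = 0.0301; 7 of 8 below).

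*Mfap4* and *Spp1* kept their calls whichever embryo was left out. *Mfap2* had an adjusted p of 0.0826 without control 2 and 0.0516 without control 6. *Thbs2* had 0.0714, 0.426, 0.0517 and 0.0582 without control 2, control 6, Eed-cKO 2 and Eed-cKO 3. Among 21 genes for collagen folding and cross-linking, 1 fell and none rose (median log2 0.23). That gene, *Adamts2*, which cleaves the amino ends of procollagens, had 158, 330.0 and 475 CPM in control and 64.5, 86.7 and 169 CPM in Eed-cKO (log2 −1.70, SE 0.295, adjusted p = 0.00148; 6 of 8 below all controls; 0.0548 without control 6). The collagen chaperone gene *Serpinh1* was even, at 914, 1293 and 1463 and 855, 1282 and 1771 CPM.

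Among signalling genes, 2 of 26 BMP and TGF-beta genes fell (1.1% of all genes did) and none rose (0.732% did), with a median log2 of 0.05. *Bmp4*, a secreted BMP ligand, had 219, 224 and 366 CPM in control and 11.4, 45.6 and 169 CPM in Eed-cKO (log2 −2.18, SE 0.390, adjusted p = 0.00196), below all controls in 8 of 8, and it kept its call whichever embryo was left out. *Ltbp4*, which holds latent TGF-beta in the matrix, had 268, 297 and 428 CPM in control and 32.2, 98.4 and 246 CPM in Eed-cKO (log2 −1.38, SE 0.315, adjusted p = 0.0137; 8 of 8), with 0.0523 without control 2 and 0.175 without control 6.

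In the retinoid pathway 2 of 15 genes rose and 1 fell (median log2 −0.16): *Rdh10* and *Cyp1b1* rose, and *Crabp2* fell. *Cyp1b1*, a cytochrome P450 that can oxidise retinol, had 366, 158 and 218 CPM in control and 487, 774 and 1143 CPM in Eed-cKO (log2 1.77, SE 0.283, adjusted p = 0.000693). All 8 Eed-cKO embryos lay above all controls, with no call lost on leaving out an embryo. *Aldh1a2*, the main retinoic acid synthase of the meninges, had 524, 970.1 and 451 CPM in control and 131, 455 and 768 CPM in Eed-cKO, and the groups overlapped.

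Of 14 genes of the insulin-like growth factor axis, 1 fell and none rose (median log2 0.28). *Igfbp2*, an IGF binding protein, had 2914, 3141 and 3595 CPM in control and 3236, 3983 and 5914 CPM in Eed-cKO (log2 0.37, SE 0.204, adjusted p = 0.492). *Igfbp6*, which binds Igf2, had 73.1, 85.8 and 163 and 16.1, 27.5 and 74.7 CPM (log2 −1.54, SE 0.411, adjusted p = 0.0393), and its call ended without control 2 (0.0918), control 6 (0.472) or Eed-cKO 1, 2, 3, 4 or 7 (0.0572, 0.0599, 0.0672, 0.0893 and 0.0508). The imprinted RNA gene *H19* had 7193, 8110.4 and 7782 CPM in control and 1856, 5096 and 7857 CPM in Eed-cKO (log2 −0.65, SE 0.268, adjusted p = 0.288), and 6 of 8 Eed-cKO embryos lay below all controls without passing.

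Among 17 imprinted genes tested 1 rose and none fell (median log2 0.34). *Zdbf2* had 73.1, 46.2 and 15.6 CPM in control and 93.7, 122 and 244 CPM in Eed-cKO (log2 1.61, SE 0.403, adjusted p = 0.0263; 8 of 8 above), with an adjusted p of 0.144 without control 2 and 0.303 without control 6. Neurons held more of this RNA than the chosen cells, at a mean of 357 CPM in control and 477 in Eed-cKO. The part of neuron RNA in this call was not tested. *Cdkn1c*, an imprinted cell cycle inhibitor, had 1548, 2969.7 and 2638 CPM in control and 987, 1371 and 2417 CPM in Eed-cKO (log2 −0.74, SE 0.231, adjusted p = 0.0940).

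Guidance and growth factor genes gave 2 that rose and 1 that fell of 25 (median log2 −0.23). *Cxcl12* and *Mdk* rose and *Wnt6* fell. *Mdk*, midkine, had 890.0, 904 and 988 CPM in control and 1231, 1586 and 2184 CPM in Eed-cKO (log2 0.78, SE 0.211, adjusted p = 0.0418), above all controls in 8 of 8. Its call ended on leaving out any 1 of the 3 controls (0.0992, 0.210 and 0.154) or of Eed-cKO 1, 2, 4, 5 and 8 (0.0572, 0.0763, 0.0783, 0.0629 and 0.0674).

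Of 30 transcription factor genes of the mesenchyme 1 rose and 2 fell (median log2 −0.13). *Tbx18*, a T-box factor of pia and vessel wall, had 293, 231 and 163 CPM in control and 319, 461 and 661 CPM in Eed-cKO (log2 1.04, SE 0.264, adjusted p = 0.0288; 8 of 8 above). *Osr1*, an odd-skipped zinc finger factor, had 171, 601 and 529 CPM in control and 83.8, 164 and 306 CPM in Eed-cKO (log2 −1.55, SE 0.296, adjusted p = 0.00307; 6 of 8 below), and *Foxp1* fell as given above. The adjusted p of *Osr1* was 0.0924 without control 2, and that of *Tbx18* was 0.154, 0.294 and 0.0617 without control 2, control 6 and Eed-cKO 4. *Zic1*, a zinc finger factor of meninges and dorsal brain, lay above all controls in 8 of 8 embryos at 317, 436 and 475 and 489, 608 and 719 CPM, but did not pass (log2 0.52, SE 0.222, adjusted p = 0.316).

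Hox genes, which PRC2 keeps silent in the forebrain, were near the limit of detection. The chosen control cells had 0 UMIs of 34 Hox genes, and the chosen Eed-cKO cells had 94 in 44 of 263 cells, or 76.7 per 1000000 UMIs. Neurons had 489 per 1000000 UMIs in Eed-cKO and 0.179 in control. The level in the chosen Eed-cKO cells was higher in cells with more neuron genes, at 37.6 per 1000000 UMIs with none, 85.9 with 1, 178 with 2 and 195 with 3. No Hox gene had enough UMIs to be tested, and Eed-cKO 8 had none.

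Set against neuron RNA, there were 66.6 Hox UMIs per 1000 UMIs of the 20 further neuron genes in the chosen Eed-cKO cells, 20.7 in Eed-cKO neurons and 21.3 in the mixed droplets. Within the chosen Eed-cKO cells it was 56.9 with no neuron gene, on 24 Hox UMIs in 15 of 145 cells, 102 with 1, 97.0 with 2 and 21.8 with 3. The source of these UMIs was not tested.

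Among the genes called without overlap between the groups, the 10 largest rises were in genes with 0 to 17 UMIs in the 3 control embryos. *Trp53inp1*, a p53 target, had 0 UMIs in the 3 control embryos and 62 in Eed-cKO, at 11.4, 47.2 and 84.3 CPM (adjusted p = 0.00435), at least 6.19-fold higher against a floor of 3 UMIs over the control group. *Moxd1*, a monooxygenase, had 12.2, 6.60 and 0 CPM in control and 18.7, 94.5 and 148 CPM in Eed-cKO (log2 3.85, SE 0.700, adjusted p = 0.00221), and *Jmy*, an actin nucleator and p53 cofactor, had 0, 26.4 and 15.6 and 64.5, 111 and 169 CPM (log2 2.74, SE 0.493, adjusted p = 0.00196). *Moxd1* and *Jmy* kept their calls whichever embryo was left out, and *Trp53inp1* had 0.0523 without control 2. In 1 alternative other than leaving out an embryo, *Moxd1* lost its call (0.125), and *Trp53inp1* also lost its call in 1 (0.100).

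*Nr4a3*, an orphan nuclear receptor induced early after stimuli, had 48.8, 19.8 and 46.7 CPM in control and 75.0, 207 and 277 CPM in Eed-cKO (log2 2.43, SE 0.392, adjusted p = 0.000693), with no call lost. *Gadd45a*, a stress response gene, had 12.2, 6.60 and 15.6 and 32.2, 75.9 and 125 CPM (log2 2.66, SE 0.612, adjusted p = 0.0146), and *Arrdc3*, an arrestin family gene, 12.2, 39.6 and 77.8 and 113, 177 and 337 CPM (log2 1.96, SE 0.405, adjusted p = 0.00536). Each separated the groups in 8 of 8 embryos. *Gadd45a* had an adjusted p of 0.157 without control 2 and 0.0731 without control 6, and *Arrdc3* 0.0748 without control 2.

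The remaining 4 of the 10 largest rises were *Nfxl1* (3.52, 0.0455), *3110043O21Rik* (3.12, 0.0154), the anchoring fibril collagen gene *Col7a1* (2.56, 0.0381) and *Nab2*, a corepressor of Egr factors (1.88, 0.0359), given as log2 and adjusted p. They had 1, 2, 4 and 8 UMIs in control against 48, 67, 82 and 101 in Eed-cKO, with 8 of 8 embryos above all controls. Without control 2 their adjusted p values were 0.113, 0.0996, 0.258 and 0.219, and none kept its call without control 6 either (*Nfxl1* 0.269, *Col7a1* 0.139, *Nab2* 0.171). *Nfxl1* lost its call on leaving out any embryo but Eed-cKO 1, *Col7a1* also without control 1 (0.0687) or Eed-cKO 1, 2, 4 or 8 (0.0522, 0.0538, 0.0681 and 0.0592), and *Nab2* also without control 1 (0.0634) or Eed-cKO 2 or 5 (0.0599 and 0.0725).

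Of 21 listed immediate-early and stress genes, 1 rose and none fell (median log2 −0.14). The list leaves out *Nr4a3* and *Gadd45a*, given above, and their relatives *Nr4a2* and *Gadd45b*, looked up after the data were seen, which rose too. *Nr4a2* had 36.6, 59.4 and 101 CPM in control and 113, 209 and 318 CPM in Eed-cKO (log2 1.63, SE 0.346, adjusted p = 0.00732; 8 of 8 above), and *Gadd45b* 463, 198 and 607 and 435, 1283 and 1859 CPM (log2 1.59, SE 0.316, adjusted p = 0.00435; 7 of 8). Both missed the threshold without control 2 (0.0918 and 0.0887). *Ier3* had 134, 85.8 and 335 CPM in control and 281, 469.7 and 772 CPM in Eed-cKO (log2 1.36, SE 0.323, adjusted p = 0.0176), with 0.0699, 0.256 and 0.0544 without control 1, control 2 and Eed-cKO 4. *Fos*, the most abundant, had 731, 1861 and 2887 and 1087, 1302 and 1757 CPM, and its groups overlapped. The list was not tested as a set.

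The largest falls without overlap were led by *Abcb1a*, the drug efflux pump P-glycoprotein, with 12.2, 33.0 and 77.8 CPM in control and 0, 0 and 9.37 CPM in Eed-cKO (log2 −4.10, SE 0.865, adjusted p = 0.00691). It rests on 16 and 2 UMIs, in 13.6% and 0.760% of the cells. *Abcb1a* kept its call in all 20 alternatives in which it was fitted. Without control 2 or without control 6 it had too few UMIs to be tested. Whether its call depends on either of these embryos is therefore not known. *Slc47a1*, *Ptgds* and *Bmp4*, described above, belong here too. *Sphk1*, a sphingosine kinase, had 48.8, 198 and 54.5 CPM in control and 0, 19.4 and 45.6 CPM in Eed-cKO (log2 −2.23, SE 0.493, adjusted p = 0.0107; 0.542 without control 2). *Mrps2*, a mitochondrial ribosomal protein gene, had 48.8, 52.8 and 46.7 and 0, 6.88 and 16.1 CPM (log2 −2.74, SE 0.663, adjusted p = 0.0200; 0.148, 0.0978 and 0.0508 without control 2, control 6 and Eed-cKO 4).

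The other 4 of these falls had 15 to 23 UMIs in control and 6 to 17 in Eed-cKO, with 8 of 8 embryos below all controls: *Afap1l1* (log2 −2.87, adjusted p = 0.0495), *Nme5* (−2.79, 0.0446), *Cyp4v3* (−2.27, 0.0359) and *Piezo2*, a mechanosensitive channel (−2.20, 0.0358). Each lost its call on leaving out 1 of several embryos, *Afap1l1* with control 2 or Eed-cKO 1 to 5 (up to 0.102, without Eed-cKO 4) and *Nme5* with any but control 1 and Eed-cKO 6 (up to 0.103, without control 6). *Cyp4v3* lost it without control 2 or 6 or Eed-cKO 3, 4 or 5 (up to 0.239, without control 2). *Piezo2* lost it without any of the 3 controls or Eed-cKO 1, 2, 3 or 8 (up to 0.197, without control 6). Unlike the call of *Bmp4*, these calls thus depended on single embryos.

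The metallothionein gene *Mt1*, which binds zinc and copper, had 1 of the 2 smallest adjusted p values. It had 1621, 1762 and 1891 CPM in control and 262, 538 and 754 CPM in Eed-cKO (log2 −1.71, SE 0.245, adjusted p = 0.000234), and the lowest control exceeded the highest Eed-cKO embryo by more than the whole spread of the controls. *Chchd10*, a mitochondrial intermembrane space gene, had 549, 634 and 514 CPM in control and 48.4, 95.2 and 300.1 CPM in Eed-cKO (log2 −1.98, SE 0.322, adjusted p = 0.000693). Both kept their calls whichever embryo was left out.

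*Slc1a3*, the glutamate transporter GLAST of astrocytes and also of meningeal fibroblasts, had 183, 271 and 280.1 CPM in control and 281, 660.3 and 1023 CPM in Eed-cKO (log2 1.42, SE 0.278, adjusted p = 0.00403, 8 of 8 above). It kept its call whichever embryo was left out, but lost it in 1 other alternative (0.155). It was the 1 gene of 7 astrocyte and radial glia genes tested that passed, in a list with a median log2 of 1.42 and sums of 293, 396 and 342 CPM in control and 487, 779.9 and 1892 CPM in Eed-cKO. The astrocyte markers *Gfap* and *Aqp4* were at 0 in control. *Slc1a3* was detected in 46.9% of control and 66.9% of Eed-cKO chosen cells and in 5.90% of neurons. Whether glial RNA had a part in this rise was not tested.

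Whether the genotype difference itself differed between the chosen cells and neurons was tested within the same embryos. Of 15214 genes, 166 passed in this interaction test (1.09%), with 53 more positive in the chosen cells and 113 more negative. Of the 166 genes, 64 had been called in the chosen cells and 74 in neurons. The count was 31 without control 2 and 100 without control 6, of which 29 and 76 were among the 166. In neurons alone, 2127 of 15005 genes passed.

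*Twist1* and *Foxd1*, transcription factors of neural crest and mesenchyme, had the 2 smallest adjusted p values of this test. *Twist1* had 48.8, 409 and 179 CPM in the chosen control cells and 97.7, 166 and 262 CPM in the chosen Eed-cKO cells (log2 −0.44, SE 0.338, adjusted p = 0.670), with overlapping groups. In neurons its mean was 0.433 ± 0.263 CPM (SD, n = 3) in control and 26.3 ± 7.92 CPM (SD, n = 8) in Eed-cKO, a rise (adjusted p = 2.99e-09) that made the interaction −5.99 (SE 0.551, adjusted p = 8.22e-12, edgeR). *Foxd1* had 232, 376 and 420.2 and 171, 248 and 304 CPM in the chosen cells, and a mean of 1.15 and 11.9 CPM in control and Eed-cKO neurons (interaction −3.70, SE 0.429, adjusted p = 2.70e-08). The Eed-cKO level of both genes in neurons stayed well below that in the fibroblasts.

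**Figure D5:**
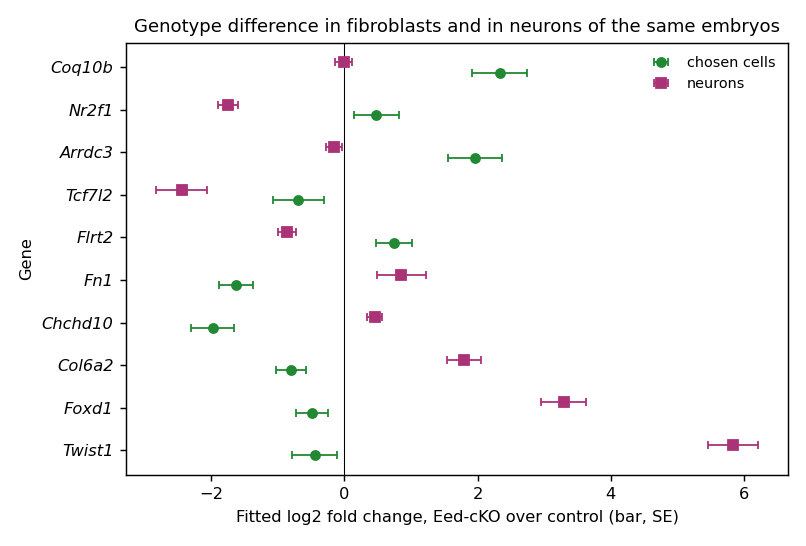
For 10 genes the fitted log2 fold change of Eed-cKO over control is shown with its SE in the chosen cells (circles) and in neurons of the same embryos (squares). *Twist1* is at −0.44 and 5.84 in the 2 classes, *Fn1* at −1.63 and 0.85, and *Nr2f1* at 0.48 and −1.75.

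*Fn1*, *Chchd10* and *Col6a2*, a chain of type VI collagen, were also more negative in the chosen cells. The interaction was −2.47 for *Fn1* (SE 0.305, adjusted p = 1.41e-07), whose neuron means were 6.42 and 11.6 CPM. For *Chchd10* it was −2.50 (SE 0.328, adjusted p = 5.83e-07), with 172 CPM in control and 237 CPM in Eed-cKO neurons. *Col6a2* had 1109, 897 and 1782 CPM in the chosen control cells and 484, 695 and 998 CPM in the chosen Eed-cKO cells (log2 −0.80, SE 0.224, adjusted p = 0.0535), and an interaction of −2.58 (SE 0.331, adjusted p = 3.46e-07). Collagen RNA in neurons moved as well: *Col1a2*, a gene of the choice, averaged 7.43 CPM in control and 44.9 CPM in Eed-cKO neurons. The mixed droplets count among these neurons. A choice made after the data were seen kept only neurons with none of the collagen-group genes; the interaction then was −2.05 for *Fn1* (adjusted p = 1.59e-06) and −2.31 for *Col6a2* (adjusted p = 4.68e-07). It passed for 158 of 15044 genes, 134 of them among the 166, and the 10 genes named here kept their direction and passed.

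On the positive side, *Nr2f1*, an orphan nuclear receptor, had 366, 99.0 and 117 CPM in the chosen control cells and 131, 211 and 343 CPM in the chosen Eed-cKO cells (log2 0.48, SE 0.342, adjusted p = 0.634). In neurons it fell from a mean of 381 to 113 CPM (adjusted p = 1.42e-07). Its interaction was 2.30 (SE 0.335, adjusted p = 5.25e-06). *Tcf7l2*, a Wnt effector, had 256, 66.0 and 62.3 and 34.2, 68.6 and 93.7 CPM in the chosen cells (log2 −0.70, SE 0.380, adjusted p = 0.490) and fell in neurons from 720.3 to 135 CPM (interaction 2.12, SE 0.396, adjusted p = 0.00123). *Flrt2*, a guidance receptor, had 293, 205 and 366 and 244, 464 and 731 CPM in the chosen cells (log2 0.74, SE 0.268, adjusted p = 0.1802) and fell in neurons from 57.9 to 31.7 CPM (interaction 1.64, SE 0.287, adjusted p = 0.000469). The neuron falls of *Tcf7l2* and *Flrt2* had adjusted p values of 0.000287 and 0.000285. For *Nr2f1* and *Tcf7l2* the larger fitted change was in the neurons, and for *Flrt2* the fitted changes went in opposite directions. Whether the sizes of the changes differed was not tested.

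*Coq10b*, which binds coenzyme Q, and *Arrdc3* rose in the chosen cells and not in neurons. *Coq10b* had 12.2, 33.0 and 70.0 CPM in the chosen control cells and 37.5, 214 and 279 CPM in the chosen Eed-cKO cells (log2 2.33, SE 0.417, adjusted p = 0.00196; 7 of 8 above), and 34.5 and 33.9 CPM in neurons (interaction 2.38, SE 0.448, adjusted p = 0.00140). *Arrdc3* was at 81.3 and 73.5 CPM in neurons (interaction 2.19, SE 0.419, adjusted p = 0.00158). Without control 2 the adjusted p of the interaction was 0.0531 for *Tcf7l2*, 0.0644 for *Coq10b* and 0.0777 for *Arrdc3*.

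A few genes changed by a like amount in both classes, and were chosen after their values were seen. *Rps13*, a ribosomal protein gene, had 914, 825 and 1019 CPM in the chosen control cells and 347, 463 and 544 CPM in the chosen Eed-cKO cells (log2 −1.03, SE 0.203, adjusted p = 0.00405), and its log2 was −1.05 in neurons (adjusted p = 1.25e-07). *Arl6ip1*, an endoplasmic reticulum shaping gene, had 232, 257 and 280.1 and 45.6, 101 and 136 CPM (log2 −1.34, SE 0.263, adjusted p = 0.00405), and its log2 was −1.15 in neurons (adjusted p = 1.25e-08). *Tpt1*, a translation-related gene, had 1122, 1835 and 1759 and 2139, 2991 and 3628 CPM (log2 0.90, SE 0.213, adjusted p = 0.0175), and a log2 of 0.65 in neurons (adjusted p = 3.86e-05). In all 3 genes the 8 Eed-cKO embryos lay apart from the controls, and the name groups and genotype cannot be told apart here. *Rps13* had an adjusted p of 0.0525 without control 6, and *Tpt1* 0.107, 0.0588 and 0.0731 without controls 1, 2 and 6. *Arl6ip1* lost its call in 2 alternatives other than leaving out an embryo, with an adjusted p of up to 0.363.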

How the data were processed

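Single-cell RNA of 48 libraries from 15 hypothalami was used: 22 libraries of 6 control and 26 of 9 Eed-cKO embryos. The authors aligned reads with STAR 2.5.2b and SAMtools 1.3 to mm10, removed cells with under 600 UMIs, under 1.2 UMIs per gene or under 300 genes, and deposited raw UMI counts per gene and cell (16510 genes, 14121 cells, 74487617 UMIs). The annotation and the strand of counting are not stated.

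UMIs of the chosen cells were summed per embryo, the replicate, for embryos with at least 10 such cells. Genes with at least 15 counts over the embryos and 2 in 1 of them were tested with edgeR 4.0.16 (quasi-likelihood, TMM, Benjamini-Hochberg threshold 0.05). The comparison with neurons used an interaction term with the embryo as block. Alternatives used limma 3.58.1, DESeq2 1.42.0 and, for doublets, Scrublet in scanpy 1.11.5. Shares and depth were compared by exact permutation of embryos. The other tools were Python 3.11.15, numpy 2.4.6, pandas 2.3.3, scipy 1.17.1 and R 4.3.3.

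Cell members and 35 gene lists were chosen with earlier results of these data known. Genes were named by rule: markers; *Eed*, *Ezh1*, *Ezh2* and *Suz12*; the 10 largest called changes per direction without overlap of the groups; up to 4 per list by smallest adjusted p and up to 4 by highest CPM; 5 interaction genes per direction; and the 15 highest ratios to neurons.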

Additional observations from a re-analysis of the deposited data

Results flagged for a closer look

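Groups of values were examined for a sample far from the others, and 17 of 104 had one; chance alone marks about 1 in 20 such groups. Control 5 had 1664 cells, against 1042 to 1163 in the other control embryos. Eed-cKO 8 was far above the other Eed-cKO embryos in *Cdh1* (131 CPM), *Cxcl12* (4424), *Lama1* (656), *Mfap2* (2839.8), *Col7a1* (206), *Arrdc3* (337) and the summed pia-type genes (10131 CPM). Its *Abcb1a* value (9.37 CPM) was also marked but is 1 UMI, of 2 in all Eed-cKO embryos, and so carries no difference. Eed-cKO 6, which had the fewest UMIs in chosen cells of the 8 embryos tested, was far above in *Slc16a9* (394 CPM) and *Zdbf2* (244) and far below in *Slc1a5* (18.7). Eed-cKO 4 was far above in *Ier3* (772 CPM) and in the sums of the astrocyte and radial glia genes (1892) and of the Schwann and neural crest genes (561). Eed-cKO 7 was far above in *Osr1* (306 CPM) and Eed-cKO 3 in *Cdkn1c* (2417).

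The genotype difference in the chosen cells minus that in neurons was past the threshold of the edgeR interaction test for 10 named genes. It was 2.30 (log2) for *Nr2f1*, 1.64 for *Flrt2*, 2.12 for *Tcf7l2*, 2.38 for *Coq10b* and 2.19 for *Arrdc3*. For *Twist1* it was −5.99, for *Foxd1* −3.70, for *Fn1* −2.47, for *Col6a2* −2.58 and for *Chchd10* −2.50. Mixed droplets, which are not among the chosen cells and count as neurons, held a signal of both kinds: 93 Eed-cKO droplets had at least 3 collagen-group and at least 4 neuron genes, against 6 in control, and whether these were 2 cells captured together was not tested.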

How the results depend on the processing

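No paired analysis was possible because the labels pair no embryos across genotypes. The share of leptomeningeal fibroblasts stayed higher in Eed-cKO, with p under 0.05, under all alternatives run. The difference of depth per cell ranged from −1800 to −656 UMIs when each embryo was left out in turn, and without Eed-cKO 5 it was −1551 with p = 0.025; the cause was not tested. The number of genes called ranged from 49 to 232 when each embryo was left out. With the 6% highest Scrublet scores removed, which took 0 control and 12 Eed-cKO chosen cells, it was 211. With sex as a covariate it was 203. It was 324 without a gene filter (14515 genes tested) and 105 with limma-voom against a minimum change. With at least 20 cells per embryo (2 control and 6 Eed-cKO embryos) it was 283. After thinning to 2000 UMIs, with the cells chosen before thinning (279 cells, 6821 genes tested), it was 117. The interaction count ranged from 31 to 245 when each embryo was left out, the highest without control 1. It was 101 with a stricter gene filter (12056 tested). It was 285 with fewer than 2 neuron genes per chosen cell, a limit that leaves 2 control embryos with at least 10 chosen cells. With neurons of fewer than 3 collagen-group genes it was 171, and with neurons of none 158, both sets chosen after the data were seen. Over 2475 alternatives for 88 named genes and 10 interactions, 2161 kept direction and side of the threshold, 254 lost a call, 46 gained one and 14 reversed, all 14 in genes not called. *Eed* was 2.00 with fewer than 2 neuron genes, where 2 control embryos remain, and −0.86 to 0.12 with each embryo left out. *Ezh2* was −0.0307 with median-ratio size factors, −0.0207 with limma-voom, −0.23 with 4 collagen-group genes, −0.30 after thinning and −0.46 to 0.76 with each embryo left out. *Suz12* was 0.02 with at least 5 cells per embryo, and *Twist1* ranged from −0.84 to 0.44 with each embryo left out. *Tcf7l2* was 0.13 with at least 20 cells, 0.48 with fewer than 2 neuron genes and −1.06 to 0.13 with each embryo left out; the cause was not tested. With 3 control embryos and 73 chosen cells in them, most planted 2-fold changes were missed (13 of 41 rises and 10 of 63 falls found).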

Other observations

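Cell cycle genes were sparse in the fibroblasts, and none passed. Of 20 cycling genes 0 passed in edgeR, 16 had a log2 above 0, with a median of 0.81 against 0.02 over all genes, and 5 had an unadjusted p under 0.05, 3 of them (*Ccnb1*, *Ube2c* and *Plk1*) with 0 UMIs in the 3 controls tested. The 20 genes summed to 378, 541 and 272 CPM in control embryos 1, 2 and 6 and to 129, 431 and 1243 CPM (lowest, median and highest) in Eed-cKO, with *Mcm6* the most abundant. Inhibitors of cyclin-dependent kinases gave no call among 5 tested, with 3 at an unadjusted p under 0.05 and a median log2 of 1.14. *Cdkn1c*, the most abundant, was at −0.74 (adjusted p = 0.0940) and the other 4 were above 0; the list summed to 1731, 3069 and 2700.3 CPM in control and to 1145, 1665 and 2699.5 CPM in Eed-cKO. *Cdkn2a*, a known target of PRC2 in many cells, was counted at 0 UMIs in the controls and 10 in Eed-cKO, too few to be tested.

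Among 6 cartilage and bone genes tested 1 fell, with a median log2 of 0.79. *Alpl*, an alkaline phosphatase of bone and meninges, had 97.5, 185 and 428 CPM in control and 0, 15.1 and 193 CPM in Eed-cKO (log2 −2.10, SE 0.556, adjusted p = 0.0383, edgeR; below all controls in 5 of 8), and its call ended on leaving out control 2 (0.0888), control 6 (0.509) or Eed-cKO 1, 2, 3, 4 or 8 (0.0749, 0.0720, 0.0818, 0.0937 and 0.0664). The neuropeptide gene *Crh*, chosen after its values were seen, was at least 45.6-fold lower in Eed-cKO against a floor of 3 UMIs over the group, but all its 41 control UMIs came from 1 cell of control 2.

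Of the lists of other cell types, pericyte and smooth muscle genes (7 tested) had a median log2 of 0.71, endothelial genes (4) −0.55, choroid plexus genes (4) −0.55, oligodendrocyte genes (3) −0.32, Schwann and crest genes (2) 1.19 and further neuron genes (17) −0.55. The median of the neuron genes was 0.90 without control 1 and 0.39 with embryos of at least 20 chosen cells, so its sign rests on that control. The 1 pituitary gene tested was at −0.40, and *Tfap2b*, the 1 gene tested of 5 listed patterning transcription factors, at 0.47. Ribosomal and interferon genes (10) had a median of 0.01. None of these genes passed in edgeR, and at an unadjusted p under 0.05 were 1 choroid plexus, 1 Schwann and crest and 2 neuron genes. Erythroid genes had too few UMIs to be tested.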
